A study of Mus musculus with 19 samples.

Results

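Brains of wild-type male mice were compared after treatment with CCI-779 or with placebo. CCI-779 (temsirolimus) is an ester of rapamycin, which binds the immunophilin FKBP12 and in that complex inhibits the kinase mTOR. The comparison rests on 9 arrays of the 19 in the series, all 9 from mice labelled wildtype: 5 of mice given CCI-779 and 4 of mice given placebo. Mice were 5 weeks old when intraperitoneal injections began, and they received 3 a week for 6 weeks, of CCI-779 at 20 mg/kg or of placebo. The other 10 arrays, 5 per treatment, came from mice carrying an SCA3 transgene under the same regimens, and they entered the same fit and served as a second comparison. Neither the strain nor the composition of the placebo is given in the sources used here. Whether each array came from a separate mouse is not stated, and the p-values then measure only how far these samples spread, which may be a technical matter. The title of 1 CCI-779 array carries no sample number. It is called replicate 1 or the unnumbered array, and results are given with it (n = 5 against 4) and without it (n = 4 against 4).

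mTOR works in a pair of complexes. Complex 1, built on raptor, drives protein synthesis through S6 kinases and the eIF4E-binding proteins, favours lipid synthesis through the SREBP factors and holds back autophagy through the ULK1 kinase, and complex 2, built on rictor, phosphorylates AKT. Rapamycin and its esters act on the first and, with long exposure, can also impair the second. Most of this control acts on proteins, which transcript levels do not measure. The question is which transcripts differ in the brain of a mouse without the disease transgene after weeks of the drug.

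Technical measures differed between the treatments. Hybridisation spike-ins, which are bacterial control transcripts present at a set amount in every hybridisation mix, had a mean log2 intensity of 10.56 ± 0.26 (SD, n = 5) on CCI-779 arrays and 11.48 ± 0.26 (n = 4) on placebo arrays, with no overlap (exact two-sided permutation p = 0.0159, adjusted over 5 measures 0.0496). Without the unnumbered array the difference was -0.92 against -0.92 with it (exact adjusted p = 0.0714, with 0.0286 the smallest p that 4 against 4 arrays allow). The median log2 intensity of the tested probe sets was 8.19 ± 0.04 (n = 5) under CCI-779 and 8.09 ± 0.07 (n = 4) under placebo (exact adjusted p = 0.0496, without the unnumbered array 0.107). Labelling spike-ins were at 5.57 ± 0.19 (n = 5) under CCI-779 and 6.11 ± 0.36 (n = 4) under placebo (exact adjusted p = 0.0496, without the unnumbered array 0.107). The GAPDH 3' minus 5' difference, which grows as RNA breaks down, was -0.44 to 0.28 under CCI-779 and -0.58 to -0.50 under placebo. These ranges did not overlap (exact adjusted p = 0.0496), nor did they without the unnumbered array (-0.44 to -0.39, exact adjusted p = 0.0714). The unnumbered array stood apart from the other 18. Its actin 3' minus 5' difference, read the same way, was 2.55 against 0.88 to 1.55, and its GAPDH difference was 0.28 against -0.58 to -0.28. On the first principal component of the 9 arrays, 54.0% of the variance, it lay at -74.9 and the other 8 between -8.74 and 23.5.

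**Figure D1:**
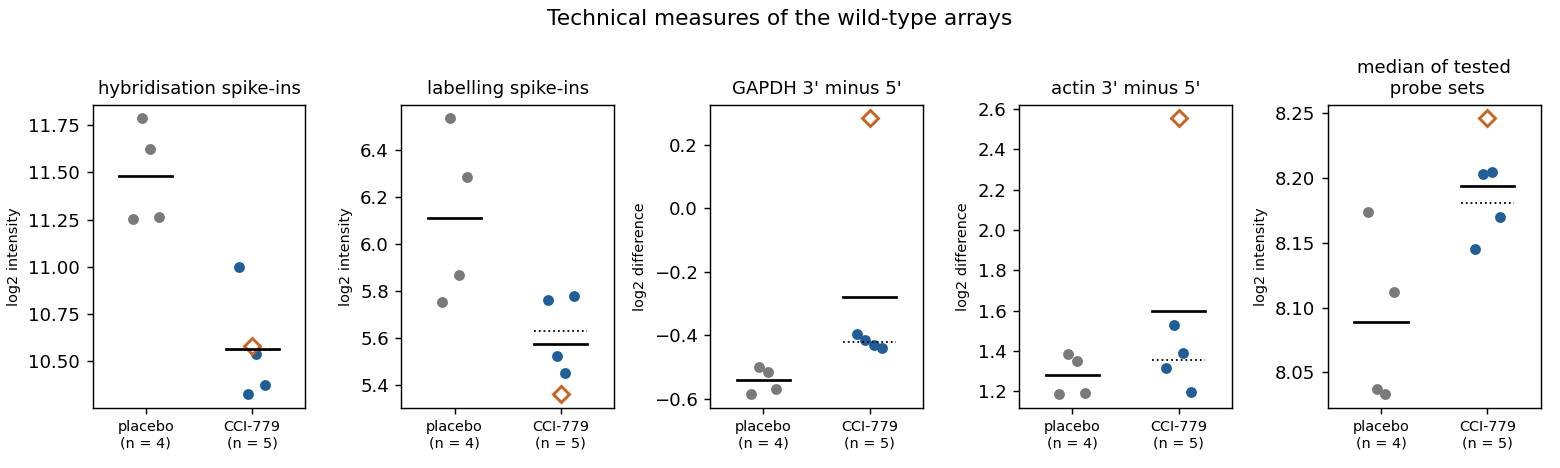
Each panel plots 1 technical measure on the log2 scale for 4 placebo arrays (grey), 4 numbered CCI-779 arrays (blue) and the unnumbered CCI-779 array (open diamond), with solid lines at group means and a dotted line at the mean of the numbered CCI-779 arrays. The hybridisation spike-ins of the CCI-779 arrays, 10.327 to 10.997, all lie under those of the placebo arrays, 11.26 to 11.79, and the unnumbered array stands above all others in both 3' minus 5' differences.

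More genes rose than fell. Of 10454 genes tested, each by its brightest probe set, 1203 were higher (11.5%) and 171 lower (1.64%) after CCI-779 at an adjusted p under 0.05 in limma. The genes that rose were led by Fam163b, Zfp316, Apc2 and Npnt, and included synaptic, chromatin and insulin-signalling genes. Those that fell were led by Kcnma1 and A330076H08Rik, and included microglial, sterol and respiratory-chain genes. The arrays of the 2 treatments did not overlap for 16.6% of all genes, which is the share to hold beside each gene described below as not overlapping. Differences were small: 36 rising and 2 falling genes passed with at least 2-fold, and the median difference of all genes was 0.08 on the log2 scale. Without the unnumbered array 782 genes were higher (7.48%) and 164 lower (1.57%). Calls made both ways numbered 756 and 124, which is 64.0% of the calls with all 5 arrays, and 447 rising and 47 falling genes were called only with the unnumbered array. Over probe sets, 2002 of 20473 were higher and 433 lower, and 1326 and 387 without the unnumbered array. Over all 45037 non-control probe sets, with no filter, 1311 were higher and 273 lower.

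The excess of rises depended on how the arrays were scaled. Rises made up 82.2% of the probe-set calls on the deposited values, 61.3% after a further quantile normalization (1183 higher, 747 lower) and 45.2% after centring each array on its median (959 higher, 1163 lower). Centring moved the median difference of all genes by -0.10, from 0.08 to -0.03, so each list median below is set against the median of all genes. Of the 10454 genes, 697 were higher and 325 lower after quantile normalization, and 574 and 549 after centring, against 1203 and 171 on the deposited values. List counts after either scaling are to be set beside these. Counts with all 5 arrays are to be set beside 11.5% higher and 1.64% lower of all genes. For counts without the unnumbered array these shares are 7.48% and 1.57%. None of the 1374 called genes turned its sign under either scaling. With the hybridisation spike-in level of each array as a covariate no probe set passed in limma, while 1548 had an unadjusted p under 0.05, and the median standard error grew from 0.11 to 0.21. Because that level separates the treatments without overlap, it and the drug cannot be told apart in these arrays. The same holds for the GAPDH 3' minus 5' difference, which was not fitted as a covariate. Leaving out placebo replicate 2, 3 or 4 lowered the probe-set counts to 1145 and 204, 1110 and 233, and 1157 and 198, and leaving out CCI-779 replicate 3 or 4 lowered the falling count to 271 or 267. Calls made under all of 4 settings (all 5 arrays, the unnumbered array left out, quantile normalization, centring) numbered 531 rising and 121 falling genes, which is 44.1% and 70.8% of the main calls. These are called the shared calls below.

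Fam163b, a little-studied gene, differed most. Its log2 intensity was 8.59, 6.61, 7.38, 7.12 and 6.07 on CCI-779 replicates 1 to 5 and 4.46, 5.01, 4.98 and 3.73 on placebo replicates 1 to 4. All CCI-779 arrays exceeded all placebo arrays, and the unnumbered array was the highest. The difference was 2.61 ± 0.46 (SE; 6.11-fold, adjusted p = 0.0028), and 2.25 ± 0.41 (4.76-fold, adjusted p = 0.00517) without the unnumbered array. Npnt encodes nephronectin, a matrix ligand of integrins. It read 7.34, 7.30, 7.02, 6.59 and 6.201 under CCI-779 and 5.83, 5.37, 4.94 and 5.13 under placebo, again without overlap, a difference of 1.57 ± 0.24 (adjusted p = 0.00118; without the unnumbered array 1.46, adjusted p = 0.0034). A dimmer Npnt probe set differed by 0.10 (adjusted p = 0.589).

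The other large rises were spread over genes of different roles. Apc2, a neuronal relative of the APC tumour suppressor that binds microtubules, read 8.03, 7.34, 7.57, 7.89 and 7.04 under CCI-779 against 6.69, 5.66, 5.68 and 5.84, a difference of 1.61 ± 0.34 (adjusted p = 0.00652). Supt6, a histone chaperone that travels with RNA polymerase II, read 8.46, 8.27, 8.40, 8.38 and 7.82 against 7.37, 6.69, 6.96 and 6.95 (1.27 ± 0.19, adjusted p = 0.00118). Neither pair of groups overlapped, and both genes are among the shared calls. Atn1 (atrophin 1, a corepressor) rose by 1.47, Zfp385a (an RNA-binding zinc finger protein) by 1.42, Casc3 (a core part of the exon junction complex) by 1.32, Tns2 (a tensin of focal adhesions) by 1.26 and Cdh19 (a cadherin) by 1.22. Zfp316 rose by 1.62 with overlapping groups, since placebo replicate 1 (4.84) lay above CCI-779 replicates 1 (4.62) and 2 (4.63). Its mean log2 intensity over the 19 arrays was 4.53, near the filter of 4, and that of Tns2 was 4.95. Sall2, a zinc finger factor, and Polr2a, the largest subunit of RNA polymerase II, lost their calls without the unnumbered array: Sall2 went from 1.26 (adjusted p = 0.0389) to 1.13 without it (0.0856), and Polr2a from 1.22 (0.0242) to 0.99 (0.0553). Sall2 also lost its call without placebo replicate 2, on which it read 5.21 against 7.05 to 7.17 on the other placebo arrays, or without CCI-779 replicate 3 or 4 or placebo replicate 4, and Polr2a without placebo replicate 2, 3 or 4 (highest adjusted p 0.132 and 0.0738).

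The gene with the largest fall was Kcnma1, the pore subunit of the large-conductance calcium-activated potassium channel. Its brightest probe set read 7.03, 8.72, 8.79, 7.84 and 9.003 under CCI-779 and 9.08, 9.75, 9.21 and 9.74 under placebo. The groups did not overlap, and the unnumbered array was the lowest. The difference was -1.17 ± 0.32 (adjusted p = 0.0277) and -0.86 ± 0.25 (adjusted p = 0.046) without that array. The call was lost without CCI-779 replicate 4 or placebo replicate 2 or 4 (highest adjusted p 0.0855). None of the other 4 tested Kcnma1 probe sets passed, with differences from -0.29 to 0.32. A330076H08Rik, a transcript without a known function, read 5.45, 5.63, 5.89, 5.23 and 6.07 against 6.91, 6.76, 6.35 and 7.11, without overlap (-1.13 ± 0.19, adjusted p = 0.00217), and -1.08 without the unnumbered array. Its other tested probe set differed by 0.26 (adjusted p = 0.596). Fam81a read 9.26, 9.48, 9.94, 9.53 and 10.05 against 10.23, 10.67, 10.65 and 10.59, also without overlap (-0.88 ± 0.16, adjusted p = 0.00284). Raly, an RNA-binding protein of the hnRNP family, fell by 0.90 (adjusted p = 0.015) and Ninj1, an adhesion protein that takes part in the rupture of dying cells, by 0.67 (adjusted p = 0.00847), and both kept their calls whichever array was left out. Arhgef33 fell by 0.82 and Grasp, a scaffold for glutamate receptors, by 0.67. Their calls were lost without placebo replicate 4 (adjusted p 0.069 and 0.0993 at the highest), that of Grasp also without placebo replicate 3 or CCI-779 replicate 4. A dimmer probe set differed by -0.30 for Arhgef33, 0.41 for Grasp and 0.01 for Ninj1 (adjusted p 0.652, 0.1325 and 0.939).

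For some of the falling genes the probe sets disagreed. Zfp207, a zinc finger protein of spindle assembly, fell by 0.87 at its brightest probe set (adjusted p = 0.0333) and rose by 0.51 at another (adjusted p = 0.0115), and both were called without the unnumbered array too. The fall was lost without CCI-779 replicate 4 or any 1 placebo array (highest adjusted p 0.0805). Luc7l2, a splicing factor, differed by -0.68 at the brightest of 6 tested probe sets (adjusted p = 0.0302; without the unnumbered array -0.54, adjusted p = 0.0683) and by -0.23 to 0.14 at the next 3 in brightness, none of which passed. The fifth fell by 0.22 (adjusted p = 0.0492). The call at the brightest was also lost without CCI-779 replicate 4 or any 1 placebo array (highest adjusted p 0.0739). The falls of Ankrd45 (-0.92) and Baalc (-0.83) were lost without the unnumbered array (adjusted p 0.0693 and 0.0966), that of Ankrd45 also without CCI-779 replicate 4 or placebo replicate 1, 3 or 4 (highest adjusted p 0.0811) and that of Baalc in 16 of the fits that left 1 array out (highest adjusted p 0.103). Over all 1374 called genes, 727 had a further tested probe set: 115 had one called the same way and 34 one called the opposite way. Of the falling genes alone 114 had a further one, with 18 called lower and 13 called higher.

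**Figure D2:**
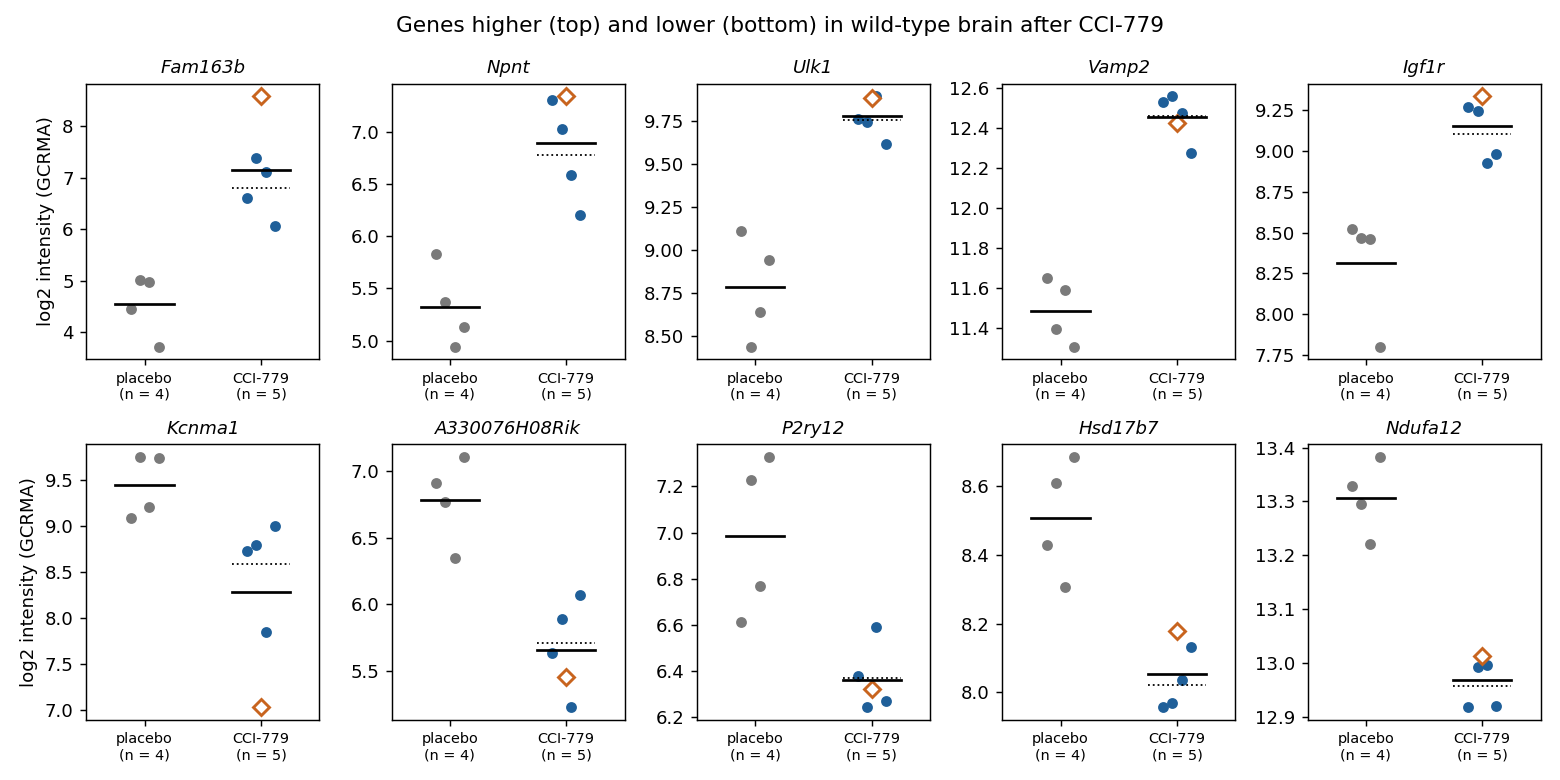
Log2 intensity of 10 genes on each array, placebo in grey, numbered CCI-779 arrays in blue and the unnumbered CCI-779 array as an open diamond, with solid lines at group means and a dotted line at the CCI-779 mean without the unnumbered array. In all 10 panels the groups do not overlap; the unnumbered array is the highest for Fam163b (8.59) and the lowest for Kcnma1 (7.03), and lies among the others for Vamp2 and P2ry12.

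Of 35 tested genes of the mTOR complexes, their regulators and the FKBP family, 6 were higher, 1 was lower and 28 did not pass. That is 20.0% called against 13.1% of all genes. The list had a median difference of 0.02, which is 0.06 under the median of all genes. Mtor, the kinase itself, read 10.14, 9.80, 9.88, 9.87 and 9.77 under CCI-779 and 9.71, 9.40, 9.77 and 9.43 under placebo, with CCI-779 replicate 5 level with the highest placebo array. Its difference was 0.31 ± 0.09 (adjusted p = 0.0357) and 0.25 without the unnumbered array (adjusted p = 0.0815). Rptor (raptor, of complex 1) and Rictor (of complex 2) followed the same course, from 0.31 and 0.35 (adjusted p 0.0449 and 0.0366) to 0.24 and 0.28 (0.101 and 0.0847). All 3 calls were also lost without CCI-779 replicate 3 or 4 or placebo replicate 2 or 4, among others (highest adjusted p 0.123, 0.138 and 0.11). Tsc2, which restrains complex 1, went from 0.36 (adjusted p = 0.0239) to 0.34 (0.0515) and lost its call without placebo replicate 2 or 4 as well (highest adjusted p 0.0865). Without the unnumbered array 1 gene of the list was higher and 1 lower, and after centring 1 was higher and 4 lower.

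The 2 members called without that array moved in opposite directions. Telo2, a chaperone cofactor that assembles mTOR and related kinases, read 9.06, 9.06, 8.91, 8.87 and 8.82 against 9.27, 9.34, 9.47 and 9.26, without overlap. It fell by 0.39 ± 0.10 (adjusted p = 0.0174; without the unnumbered array -0.42, adjusted p = 0.0208), and the call was lost without placebo replicate 3 (adjusted p = 0.0612). Fkbp5 encodes FKBP51, an immunophilin of the glucocorticoid receptor complex that also binds rapamycin. It read 9.28, 9.35, 9.64, 8.67 and 8.67 against 8.56, 8.12, 8.19 and 7.77, again without overlap, a difference of 0.96 ± 0.26 (adjusted p = 0.0234; 0.92 and 0.0476 without the unnumbered array). Leaving out CCI-779 replicate 3 or placebo replicate 2, 3 or 4 ended that call (highest adjusted p 0.0788). Fkbp1a, which encodes FKBP12, the drug's own binding partner, was at 13.80 ± 0.05 (SD, n = 5) under CCI-779 and 13.91 ± 0.12 (n = 4) under placebo and did not pass (-0.11 ± 0.08 SE, adjusted p = 0.346).

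In the S6 kinase and eIF4E arm 2 of 18 tested genes rose and none fell, with and without the unnumbered array. That is 11.1%, near the 11.5% of all genes that rose. Eif4g3, a scaffold of the cap-binding complex, read 11.22, 10.71, 10.90, 10.87 and 10.67 against 10.30, 10.15, 10.31 and 10.33, without overlap (0.60 ± 0.11, adjusted p = 0.0029). Eef2, the elongation factor controlled by an S6 kinase target, read 12.64, 12.75, 12.61, 12.95 and 12.76 against 12.47, 12.38, 12.42 and 12.18, also without overlap (0.38 ± 0.09, adjusted p = 0.0169; without placebo replicate 4, 0.0641). Eif4ebp1, the repressor of eIF4E that complex 1 phosphorylates, was near the filter at 4.12 ± 0.10 (SD, n = 5) and 4.16 ± 0.04 (n = 4) and did not pass (adjusted p = 0.608). Of 40 tested cytosolic ribosomal protein genes, whose mRNAs are the main translational targets of complex 1, 4 were higher, and 1 was without the unnumbered array. After centring no gene of this list passed in limma. Their median difference was 0.14, 0.06 over that of all genes.

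Genes that carry the insulin and IGF signal upstream of mTOR included several rises. Of 28 tested, 6 were higher and none lower, and 6 were higher also without the unnumbered array, after quantile normalization and after centring. Igfbp4, which binds IGFs outside the cell, read 10.60, 10.48, 10.49, 10.44 and 10.18 under CCI-779 and 9.74, 9.60, 9.85 and 9.78 under placebo. The groups were well apart, with a difference of 0.69 ± 0.08 (adjusted p = 0.000217; 0.65 and 0.000528 without the unnumbered array), and 2 further Igfbp4 probe sets rose by 0.60 and 0.46 while another 2 did not pass. Igf1r, the IGF1 receptor, read 9.33, 9.27, 9.25, 8.92 and 8.98 against 8.52, 8.47, 8.46 and 7.80, without overlap (0.84 ± 0.14, adjusted p = 0.00231). A second bright Igf1r probe set differed by 0.05 (adjusted p = 0.629). Pik3r1 and Pik3r2, the regulatory subunits of PI3-kinase, rose by 0.51 and 0.37 (adjusted p 0.00307 and 0.00335). All 4 genes kept their calls whichever array was left out. The list's median was 0.15, 0.07 over that of all genes.

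Autophagy genes showed 7 rises and no fall among 39 tested, and 4 rises and no fall without the unnumbered array. That is 17.9% with all 5 arrays, beside the 11.5% of all genes that rose. Without the unnumbered array 7.48% of all genes rose. The shared calls held 2 of the 39, Ulk1 and Atg4c, and as rises 5.08% of all genes. Ulk1, the kinase that starts autophagy and that complex 1 inhibits, read 9.88, 9.76, 9.74, 9.89 and 9.62 under CCI-779 and 9.11, 8.44, 8.64 and 8.94 under placebo. Every CCI-779 array lay above every placebo array, and Ulk1 rose by 0.998 ± 0.14 (adjusted p = 0.00088; without the unnumbered array 0.97, adjusted p = 0.0022). A dimmer Ulk1 probe set differed by 0.38 (adjusted p = 0.325). Atg4c, a protease of the ATG8 proteins, rose by 0.49 (adjusted p = 0.00582). Atg9a, the membrane protein that seeds autophagosomes, and Wipi2, which reads the lipid made there, rose by 0.51 and 0.50 and lost their calls without placebo replicate 2, 3 or 4, Wipi2 also without CCI-779 replicate 3 or 4 (highest adjusted p 0.0752 and 0.104). After centring 2 genes of the list were higher and 3 lower, and its median of 0.11 lay 0.03 over that of all genes. Lysosomal genes showed 1 rise and 1 fall among 32.

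Of 37 tested genes of the synaptic vesicle, its fusion machinery and transmission, 12 were higher and none lower, and 11 and none without the unnumbered array. After centring 7 were higher and 3 lower. Vamp2, the vesicle SNARE, read 12.43, 12.53, 12.56, 12.48 and 12.28 under CCI-779 and 11.65, 11.40, 11.59 and 11.31 under placebo. The difference was 0.97 ± 0.13 both with and, at ± 0.14, without the unnumbered array (adjusted p 0.000693 and 0.0016), and a dimmer Vamp2 probe set differed by 0.04 (adjusted p = 0.971). Syp (synaptophysin, a vesicle membrane protein) read 12.96, 12.68, 12.61, 12.65 and 12.38 against 11.93, 11.68, 11.90 and 11.59 (0.88 ± 0.13, adjusted p = 0.000962). Slc32a1, the vesicular transporter of GABA and glycine, rose by 0.51 (adjusted p = 0.00147) and Syn1, which tethers vesicles, by 0.38 (adjusted p = 0.00371). No group overlapped in any of the 4, and each kept its call whichever array was left out. The list's median was 0.17, 0.09 over that of all genes.

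On the postsynaptic side 9 of 23 tested scaffold and adhesion genes were higher and none lower, 7 and none without the unnumbered array, and 6 and 2 after centring. Nlgn2 (neuroligin 2, the adhesion protein of inhibitory synapses) read 11.19, 10.41, 10.67, 10.64 and 9.87 against 9.46, 9.16, 9.51 and 9.28, without overlap (1.21 ± 0.21, adjusted p = 0.00282; without the unnumbered array 1.05, adjusted p = 0.00554). The scaffold genes Dlgap3, Dlg2 and Dlgap1 rose by 0.99, 0.71 and 0.47 (adjusted p 0.00318, 0.00269 and 0.00557). A second Dlgap1 probe set rose by 0.25, and the 2 dimmer Dlg2 probe sets did not pass. Voltage-gated calcium and sodium channel genes showed 6 rises and 1 fall among 22, and 2 and 1 without the unnumbered array. The fall was that of Scn2b, an auxiliary sodium channel subunit, which read 11.53, 11.48, 11.49, 11.42 and 11.39 against 11.88, 11.78, 11.74 and 11.77, without overlap (-0.33 ± 0.09, adjusted p = 0.0283). It lost its call without CCI-779 replicate 4 or any 1 placebo array, and Cacna1g, a T-type calcium channel that rose by 0.61 (adjusted p = 0.0191), without placebo replicate 2, 3 or 4 (highest adjusted p 0.0626 and 0.0687). Among receptor subunits for glutamate and GABA 6 of 31 were higher and 2 lower, led by Grik5, a kainate receptor subunit, at 0.99 (adjusted p = 0.00451). None of 23 immediate early genes, which follow neuronal firing, passed in either direction, with or without the unnumbered array. Genes of microtubules and motors showed 9 rises and 3 falls among 43 (7 and 3 without the unnumbered array, 4 and 6 after centring), with Mapre3 (an end-binding protein) at 1.16 and Map1a at 1.07 (adjusted p 0.00506 and 0.00767).

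Of 48 tested chromatin modifiers and corepressors 12 were higher, 8 without the unnumbered array, and after centring 8 were higher and 1 lower. Kmt2b, a methyltransferase of histone H3, read 8.90, 8.67, 8.72, 8.80 and 8.61 under CCI-779 and 8.18, 7.87, 8.04 and 7.91 under placebo. The groups did not overlap and differed by 0.74 ± 0.09 (adjusted p = 0.000554; 0.70 and 0.00122 without the unnumbered array). Smarcc2 and Smarca4, a core subunit and the motor of the BAF remodeller, rose by 1.03 and 0.44, and Chd3, the motor of the NuRD remodeller, by 0.72 (adjusted p 0.00385, 0.00618 and 0.00153). Chd3 read 10.32 on CCI-779 replicate 5 against 10.72 to 10.79 on the other CCI-779 arrays. The list's median was 0.16, 0.08 over that of all genes. In the list of splicing factors and nuclear RNA-binding proteins 4 of 52 were higher and 1 was lower, a smaller share of rises than the 11.5% over all genes, with 5 and none without the unnumbered array and 2 and 4 after centring.

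Of 18 tested microglial markers 4 were lower, none was higher and 14 did not pass, while 1.64% of all genes were lower. Lower markers numbered 3 without the unnumbered array, 6 after quantile normalization and 8 after centring, with none higher, and the median was -0.36, 0.44 under that of all genes. Of all 10454 genes, 325 were lower after quantile normalization and 549 after centring. P2ry12, the ADP receptor that marks resting microglia, read 6.32, 6.38, 6.24, 6.59 and 6.27 under CCI-779 and 6.61, 7.23, 6.77 and 7.33 under placebo. The groups did not overlap, and the difference was -0.62 ± 0.16 (adjusted p = 0.022; -0.61 and 0.0411 without the unnumbered array). Csf1r, the receptor on which microglia depend for survival, read 10.51, 10.28, 10.30, 10.32 and 10.17 against 10.65, 10.97, 10.94 and 11.01, also without overlap (-0.57 ± 0.10, adjusted p = 0.00322). That value is from the brightest of 3 probe sets, and the other two differed by -0.00 and -0.01 (adjusted p 0.987 and 0.971). Ctss, a lysosomal protease of microglia, fell by 0.34 (adjusted p = 0.0398; -0.40 and 0.0236 without the unnumbered array). Cx3cr1, the fractalkine receptor, fell by 0.27 (adjusted p = 0.0239), and its difference without the unnumbered array was -0.25 (0.0519). The calls of P2ry12 and Cx3cr1 were lost without placebo replicate 2 or 4 and that of Ctss without CCI-779 replicate 2, 4 or 5, placebo replicate 2, 3 or 4 or 1 SCA3 placebo array (highest adjusted p 0.0803, 0.0875 and 0.1), while Csf1r kept its call whichever array was left out. Of the 18 differences 16 were below 0 and 2 above it. Aif1, another defining marker of microglia, had mean log2 intensities of 6.05 under CCI-779 and 6.06 under placebo. The summed linear intensity of the 18 markers was 5145 to 6749 under CCI-779 and 7504 to 8326 under placebo. In brain tissue fewer cells of a type and less RNA per cell cannot be told apart, here and for every other list.

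Promoter sequences of 3 of these genes, the 250 bases before the start from RefSeq (GRCm38.p6, 5′ to 3′ on the gene's strand), are shown because they fell together and because PU.1, the factor that defines microglia, binds purine-rich sites. The letters searched on both strands, in capitals below, were GAGGAA and GGAAGT, which overlap in a full PU.1 site. They occur in 23.3% and 19.7% of the 32851 RefSeq promoters of that length. P2ry12 held 1 match of the second, 51 bases before the start, Ctss 1 of the first, 164 bases before it, and Cx3cr1 none. A match is a description of the letters and not a site.
P2ry12 chr3:59262986-59263235, minus strand: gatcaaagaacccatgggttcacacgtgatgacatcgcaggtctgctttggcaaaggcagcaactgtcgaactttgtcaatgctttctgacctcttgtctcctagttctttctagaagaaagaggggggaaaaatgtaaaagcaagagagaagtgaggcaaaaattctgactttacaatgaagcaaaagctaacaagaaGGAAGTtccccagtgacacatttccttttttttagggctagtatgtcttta
Ctss chr3:95526536-95526785, plus strand: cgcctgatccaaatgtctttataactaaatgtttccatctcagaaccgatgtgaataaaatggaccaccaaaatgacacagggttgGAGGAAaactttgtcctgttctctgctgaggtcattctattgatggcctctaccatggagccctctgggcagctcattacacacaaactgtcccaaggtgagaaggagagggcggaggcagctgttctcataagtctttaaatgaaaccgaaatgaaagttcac
Cx3cr1 chr9:120068297-120068546, minus strand: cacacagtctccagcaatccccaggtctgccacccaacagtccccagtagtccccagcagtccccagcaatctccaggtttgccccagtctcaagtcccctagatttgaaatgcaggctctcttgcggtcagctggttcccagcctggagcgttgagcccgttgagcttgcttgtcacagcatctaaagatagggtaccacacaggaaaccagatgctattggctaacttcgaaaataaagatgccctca

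Markers of other cell types were counted in the same way. Myelin and oligodendrocyte markers showed 1 rise and 2 falls among 28, and no rise and 1 fall without the unnumbered array. After centring none rose and 8 fell. Their summed intensity was 107388 to 122498 under CCI-779 and 122960 to 144359 under placebo, which did not overlap. The lowest value was that of the unnumbered array, and the numbered CCI-779 arrays read 118106 to 122498. Cryab fell by 0.31 (adjusted p = 0.0484), a call lost in 15 of the fits that left 1 array out (highest adjusted p 0.146). Qdpr, a pteridine reductase, fell by 0.24 (adjusted p = 0.013) and kept its call whichever array was left out. A dimmer Qdpr probe set differed by 0.03 (adjusted p = 0.88). Astrocyte markers showed 5 rises among 22, and 2 without the unnumbered array, led by Atp1b2, a sodium pump subunit, at 0.55 (adjusted p = 0.00141). A dimmer Atp1b2 probe set differed by -0.32 (adjusted p = 0.72). After centring 2 of the list were higher and 1 lower, and its median of 0.06 lay 0.02 under that of all genes. Mean log2 intensities under CCI-779 and placebo were 9.51 and 9.51 for Gfap, 11.79 and 11.81 for Aqp4, 14.11 and 14.14 for Aldoc, 13.90 and 13.72 for Slc1a2, and 11.83 and 11.76 for Slc1a3. Meningeal and fibroblast markers had a median of 0.28 with 1 rise among 16, Aldh1a2 (a retinoic acid synthase of the meninges, 0.63, adjusted p = 0.00457), and summed intensities that overlapped (22595 to 25264 against 18209 to 23319). Endothelial and pericyte markers showed 1 fall among 19, Itm2a at -0.41 (adjusted p = 0.00281). Markers of blood cells, of the cell cycle, of the olfactory bulb and of cerebellar neurons, and interferon genes, had no member called with all 5 arrays. The part of cell composition in the other results was not tested. Defining markers of brain were bright: Snap25 (neurons), Slc1a2 (astrocytes) and Mbp (myelin) had mean log2 intensities of 15.16, 13.90 and 15.28 under CCI-779, and of 32 probe sets of genes from tissues outside the brain 1 passed the filter on low values.

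Sterol synthesis is favoured by complex 1 through SREBP2. Of 16 tested enzymes 2 were lower and none higher, all 16 differences were below 0, and the median was -0.23, 0.31 under that of all genes. Without the unnumbered array 1 was lower, after quantile normalization 5 were and after centring 6. Hsd17b7, an enzyme of the last part of the pathway, read 8.18, 7.96, 7.97, 8.03 and 8.13 under CCI-779 and 8.43, 8.61, 8.31 and 8.69 under placebo. The groups did not overlap, and the difference was -0.46 ± 0.12 (adjusted p = 0.0192; -0.49 and 0.0235 without the unnumbered array), with the call lost without placebo replicate 2 or 4 (highest adjusted p 0.0689). Fdps, which makes farnesyl pyrophosphate, read 8.62, 8.88, 9.18, 9.02 and 9.06 against 9.76, 9.52, 9.31 and 9.98, also without overlap. Its difference was -0.69 ± 0.18 (adjusted p = 0.0213), -0.61 without the unnumbered array (0.0508), and the call was also lost without placebo replicate 4 (0.0772). Genes of cholesterol transport and SREBP control went the other way in 5 of 18, 4 without the unnumbered array, with Lrp1, a lipoprotein receptor, at 0.64 and Abcg4, a sterol exporter, at 0.31 (adjusted p 0.0017 and 0.00815). Fatty acid synthesis and desaturation genes showed 4 rises among 23 with and without that array.

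The promoter of Hsd17b7 is shown because this sterol gene was called with and without the unnumbered array. It was searched for letters known from sterol gene promoters. CCAAT, bound by NF-Y, occurred 3 times, each on the other strand, at 165, 73 and 12 bases before the start. GGGCGG, bound by SP1, occurred 3 times (227, 182 and 134 bases before it), once on the gene's strand. Both are in capitals. On either strand, CCAAT was in 33.8% of all RefSeq promoters of that length and in 36.2% of those of tested genes, and GGGCGG in 32.7% and 61.0%. The sterol regulatory element, searched by its classic letters, had no match in this window. Those exact letters were rare among all RefSeq promoters and absent from the promoters of all tested genes. The search could therefore hardly have found a match, and it does not show that the element is missing. Other forms of the element were not searched for.
Hsd17b7 chr1:169969206-169969455, minus strand: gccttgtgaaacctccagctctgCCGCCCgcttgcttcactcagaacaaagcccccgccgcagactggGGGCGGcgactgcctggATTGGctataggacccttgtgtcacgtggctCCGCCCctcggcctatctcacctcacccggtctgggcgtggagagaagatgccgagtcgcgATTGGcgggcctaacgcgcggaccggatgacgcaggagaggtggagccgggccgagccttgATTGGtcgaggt

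Genes that glucocorticoids induce had the highest median of the lists, 0.45, which is 0.37 over that of all genes and 0.44 over it without the unnumbered array. Of 16 tested, 4 were higher and none lower with all 5 arrays. Beside Fkbp5 these were Bcl6, a transcriptional repressor (0.45, adjusted p = 0.0134), Mt2, a metal-binding protein (0.52, adjusted p = 0.0313), and Sult1a1, a sulfotransferase. Mt2 lost its call without CCI-779 replicate 3 or 4 or placebo replicate 2 or 3 (highest adjusted p 0.105). Sult1a1 differed by 0.81 (adjusted p = 0.0486) and by 0.82 without the unnumbered array (0.0767), and lost its call in 13 of the fits that left 1 array out (highest adjusted p 0.15). In the fit that left out the unnumbered array 4 were again higher, with Tsc22d3 (GILZ, named here after its values were seen) in place of Sult1a1 (0.70, adjusted p = 0.0497, against 0.58 and 0.0793 with all 5 arrays). After centring 1 of the 16, Fkbp5, was called. In SCA3 mice the median of the list was 0.18, with 1 gene higher.

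Of 72 tested oxidative phosphorylation genes 8 were lower, 2 were higher and 62 did not pass, 12 and 1 without the unnumbered array, and 23 and none after centring, with a median of -0.05, 0.13 under that of all genes. Ndufa12, of complex I, read 13.01, 12.92, 12.99, 12.996 and 12.92 under CCI-779 and 13.33, 13.29, 13.22 and 13.38 under placebo. Although the difference was only -0.34 ± 0.05 (1.27-fold), the groups were apart on every array (adjusted p = 0.000897; -0.35 and 0.00172 without the unnumbered array), and a second of its 3 probe sets fell by 0.35. The third differed by 0.11 (adjusted p = 0.487). Cox5b, of complex IV, read 13.45, 13.24, 13.33, 13.28 and 13.21 against 13.67, 13.64, 13.61 and 13.77, without overlap (-0.37 ± 0.06, adjusted p = 0.00153), and 2 more of its 5 probe sets passed in the same direction (-0.32 and -0.23), the latter not without the unnumbered array (adjusted p = 0.0768). Those that did not pass differed by -0.20 (adjusted p = 0.0618; -0.23 and 0.0329 without the unnumbered array) and -0.04 (adjusted p = 0.803). Uqcrc1, a core protein of complex III, went up by 0.30 (adjusted p = 0.0184), a call lost without placebo replicate 2 or 3 (highest adjusted p 0.0669). Glycolysis genes showed 5 rises among 23, and 3 without the unnumbered array.

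Heat shock proteins and cochaperones showed 3 rises and 3 falls among 35 tested, and none and 3 without the unnumbered array. Genes of the unfolded protein response and ATF4 showed 3 rises and 2 falls among 30, and 3 and 3 without it. Hspa5 (BiP, the main chaperone of the endoplasmic reticulum) fell by 0.32 and Pdia6, a disulfide isomerase there, by 0.38 (adjusted p 0.0302 and 0.0217), calls that both ended without CCI-779 replicate 4 or placebo replicate 3, and for Hspa5 without placebo replicate 2 or 4 (highest adjusted p 0.105 and 0.08). Slc7a5, an amino acid transporter that ATF4 induces, read 8.77, 8.04, 8.52, 8.58 and 7.98 against 7.51, 7.52, 7.65 and 7.27, without overlap (0.89 ± 0.19, adjusted p = 0.00767). Of 16 tested genes of ataxin-3, its relatives and the polyglutamine disorders 4 were higher and none lower with or without the unnumbered array. Atxn3, which encodes ataxin-3, a deubiquitinase, read 8.96, 8.71, 8.60, 8.89 and 8.77 in these wild-type mice under CCI-779 and 8.41, 8.32, 8.31 and 8.25 under placebo, without overlap, a difference of 0.47 ± 0.10 (adjusted p = 0.00776; 0.42 and 0.0194 without the unnumbered array). Htt (huntingtin) and Cacna1a (a calcium channel) rose by 0.54 and 0.67 (adjusted p 0.00868 and 0.00325). Dimmer Htt probe sets differed by 0.29 and -0.03 (adjusted p 0.363 and 0.811), and a dimmer Cacna1a probe set by 0.45 (adjusted p = 0.1165). Prnp, the prion protein gene, went from 14.06 ± 0.06 (SD, n = 4) to 13.88 ± 0.05 (n = 5), a difference of -0.18 (adjusted p = 0.039) that did not pass without the unnumbered array (-0.16, adjusted p = 0.0797), nor without CCI-779 replicate 2, 3 or 4 or placebo replicate 2, 3 or 4 (highest adjusted p 0.0991). Proteasome genes showed 1 fall among 40, and 3 without the unnumbered array, 4 after quantile normalization and 6 after centring, with no rise in any of these.

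**Figure D3:**
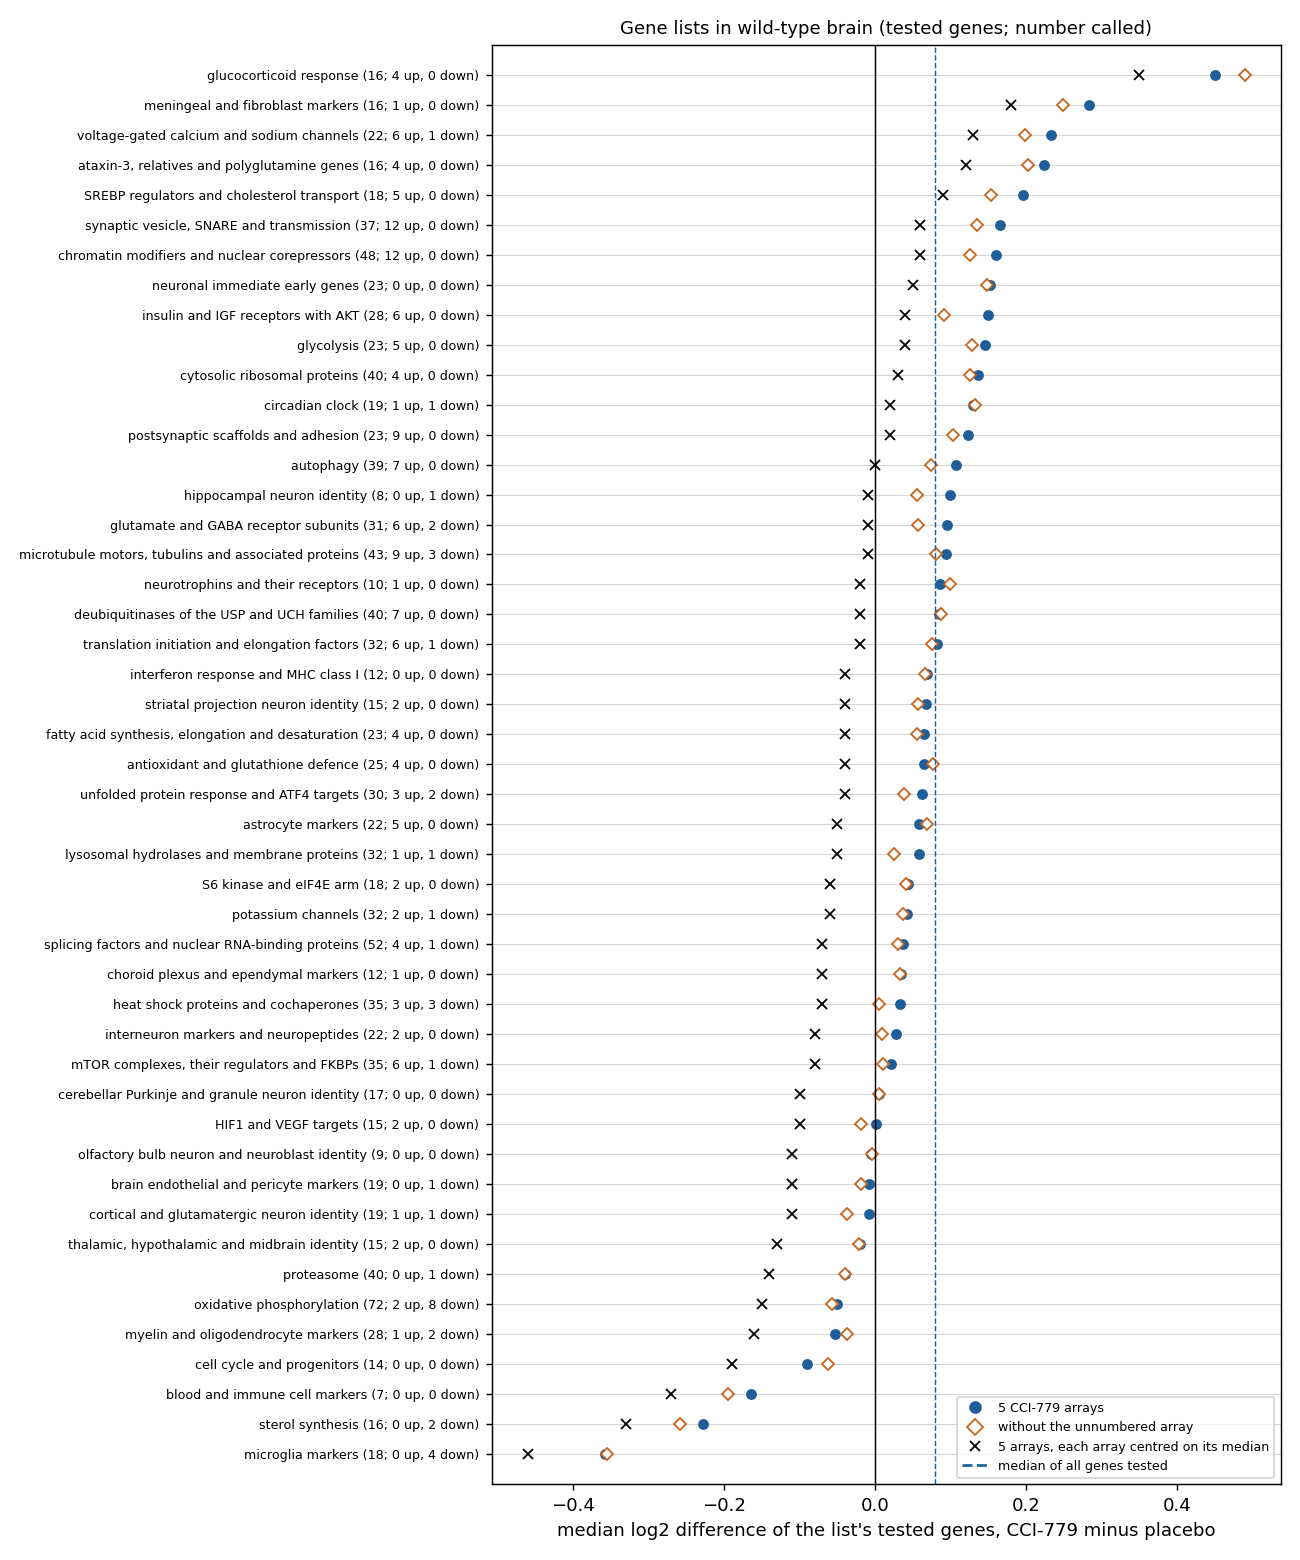
Median log2 difference (CCI-779 minus placebo, horizontal axis) of the tested genes of each list with 5 or more of them, with all 5 CCI-779 arrays (blue), without the unnumbered array (open diamonds) and after centring each array (crosses); numbers give the tested genes and the calls, and the dashed line is the median of all genes, 0.08. The glucocorticoid list lies highest (0.45) and the microglia list lowest (-0.36), and centring moves the lists to the left together.

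The same difference was measured in SCA3 mice with other arrays on both sides. There 1151 genes were higher (11.0%) and 637 lower (6.09%). Of the genes called in wild-type mice, 623 rising and 91 falling ones were called the same way in SCA3 mice, 52.0% of the wild-type calls and 39.9% of the SCA3 calls, and none the opposite way. Over the 10454 genes (not independent of each other), the differences had a Pearson r of 0.71 and a Spearman rank correlation of 0.67. The hybridisation spike-ins were dimmer under CCI-779 in SCA3 mice too (10.75 to 10.97 against 11.52 to 11.93). Their GAPDH 3' minus 5' difference was -0.43 to -0.28 on the SCA3 CCI-779 arrays and -0.535 to -0.47 on the SCA3 placebo arrays. On the second principal component of the 19 arrays, SCA3 CCI-779 replicates 2 and 5 lay at -42.4 and -39.2. The other SCA3 CCI-779 arrays lay between -2.47 and 1.955. With replicates 2 and 5 left out of the shared fit, 2374 probe sets were higher and 535 lower in wild-type mice. Fam163b rose by 2.99 and Atn1 by 2.40 in SCA3 mice (adjusted p 0.000491 and 0.000419), against 2.61 and 1.47 in wild type. A330076H08Rik differed by -0.20 (adjusted p = 0.471), Fam81a by 0.09 (0.739), Kcnma1 by -0.22 (0.679) and Cdh19 by 0.35 (0.309).

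The test of the difference between the genotypes called no probe set. The smallest adjusted p of the interaction was 0.37, and 0.319 without the unnumbered array, and 1573 and 1412 of 20473 probe sets had an unadjusted p under 0.05. Among the genes with the smallest p, Fubp3 (a nucleic acid-binding protein) differed by 0.37 in wild type and -0.40 in SCA3, an interaction of 0.77 ± 0.16 (SE), and Fam81a by -0.88 and 0.09, an interaction of -0.97 ± 0.21 (adjusted p 0.419 for both). Haus3, of the augmin complex, had 0.74 ± 0.17 and Ybx3, a cold shock protein, 0.42 ± 0.10 (adjusted p 0.419 for both). The median standard error of an interaction was 0.15, and that of the wild-type difference 0.11.

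**Figure D4:**
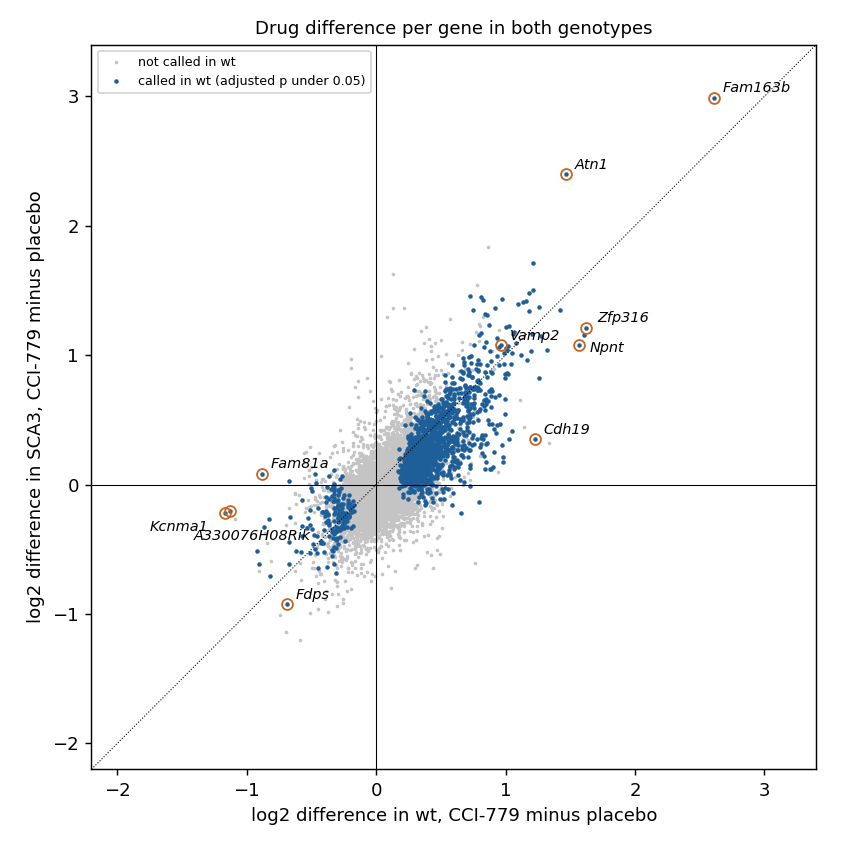
Each point is 1 of 10454 genes, with its log2 difference between CCI-779 and placebo in wild-type mice (horizontal) and in SCA3 mice (vertical), blue where it was called in wild type; the dotted line marks equal differences and circles mark 10 named genes. Fam163b lies at 2.61 and 2.99, Atn1 above the dotted line at 1.47 and 2.40, and Fam81a left of 0 on the horizontal axis only (-0.88 and 0.09).

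Rising genes were longer and had promoters richer in G and C. The median length of the RefSeq gene was 40.3 kb for rising genes, 20.0 kb for falling genes and 26.5 kb for all, and the share of genes that rose went from 6.83% in the shortest of 4 equal classes to 10.8%, 12.5% and 16.0% in the longest. By the G and C content of the promoter, known for 81.1% of genes, it went from 8.85% in the lowest class to 9.59%, 12.1% and 16.1% in the highest. Without the unnumbered array the same shares went from 4.45% to 10.5% by length and from 5.52% to 10.9% by promoter content. In SCA3 mice they went from 9.13% to 12.97% and from 7.0% to 15.5%. Falling genes were brighter, with 3.52% called in the highest class of mean intensity and 0.80% to 1.11% in the others. These shares describe genes, which are not replicates, and no test was made of them.

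**Figure D5:**
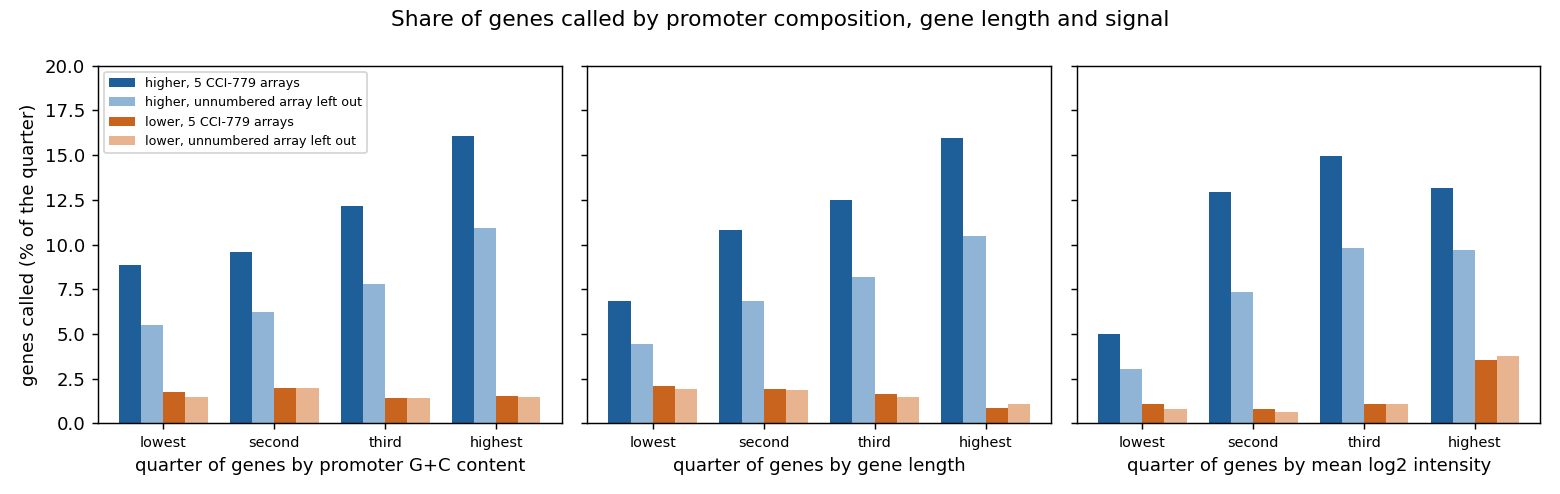
Share of genes called higher (blue) or lower (orange) in each of 4 classes of genes by promoter G and C content, gene length and mean log2 intensity, with paler bars for the fit without the unnumbered array. The share that rose climbs from 6.83% to 16.0% with gene length and from 8.85% to 16.1% with promoter content, and the paler bars climb likewise.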

How the data were processed

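Brain RNA was hybridised to Affymetrix Mouse430_2 arrays. Per the submitters' processing notes the values were made with GCRMA (version not given in the sources used here). The authors deposited linear intensities for 45101 probe sets on 19 arrays, and log2 was taken with no pseudocount. After 64 control probe sets were left out, probe sets whose log2 intensity averaged at least 4 over the arrays were tested (20473). The number of arrays limits the precision.

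A single limma fit (3.58.1, R 4.3.3) with 4 group means over all 19 arrays gave the wild-type, SCA3 and interaction contrasts, with Benjamini-Hochberg adjustment over all tested probe sets and a threshold of 0.05. SCA3 arrays therefore share the estimate of the spread. The procedure was tested on simulated data. A gene is its brightest tested probe set with 1 symbol in GEO's platform annotation (932 probe sets carry several symbols and 9160 none). Technical measures went through an exact permutation test, two-sided.

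Named genes were the 12 largest rises and falls, the 8 largest called with and without the unnumbered array, the 4 smallest p of each of the 41 lists, of 48, with a call and the 4 smallest p of the interaction, with set members of the mTOR and S6 kinase lists. Members and lists were chosen with earlier results of these data known. Alternatives were other filters, scalings, covariates, weights, thresholds and each array left out. Promoters and gene lengths came from RefSeq GRCm38.p6 by gene symbol.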

Additional observations from a re-analysis of the deposited data

Results flagged for a closer look

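Within the wild-type groups, 34 of 384 sets of values (187 named genes and 5 array measures in each of both groups) had 1 array far from the others by Dixon's test at the 95% level; chance marks about 1 in 20 such groups, and no explanation was tested. On the unnumbered CCI-779 array the GAPDH 3' minus 5' difference was 0.28 against -0.44 to -0.39 on the other CCI-779 arrays, and the actin difference 2.55 against 1.20 to 1.53. The same array was the high one for Csnk1d (10.39), Drd2 (6.81), Nova2 (8.69), Pomp (11.07), Rasd2 (9.92) and Rorb (9.23). CCI-779 replicate 2 stood apart for the regional neuron genes Tbr1 (9.82 against 9.28 to 9.39) and Reln (10.83 against 11.14 to 11.24), for Otx2 (5.05 against 5.83 to 5.93) and for Gabrg3 (5.90). CCI-779 replicate 4 stood apart for Eno2 (13.30) and Hspa5 (11.89), and replicate 5 for Chd3 (10.32), Cryab (11.28), Dync1li2 (11.13) and Scap (10.03).

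Among placebo arrays, replicate 1 stood apart for Atp1b2 (11.72), Fam81a (10.23), Gfra1 (6.65), Hlf (10.57), Prnp (13.97) and Rbm25 (9.97). Replicate 2 did so for Eif4g3 (10.15) and for Sall2 (5.21 against 7.05 to 7.17). Replicate 3 did so for Atn1 (6.22), Foxc1 (6.46), Hexa (9.33), Pdia6 (9.94), Per2 (6.42) and Psmc2 (12.18), and replicate 4 for Igf1r (7.80 against 8.46 to 8.52) and Rasd2 (8.26).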

How the results depend on the processing

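Of 144 named genes called, none reversed under any setting run. Calls kept numbered 114 without the unnumbered array, 116 after quantile normalization, 105 after centring, 100 with only the 9 wild-type arrays, 104 with no filter, 120 with the actin difference as a covariate and 0 with the spike-in covariate, where no probe set was called. Probe sets called higher and lower were 1326 and 387 without the unnumbered array, 1183 and 747 after quantile normalization, 959 and 1163 after centring, 2618 and 794 with array weights, 1170 and 194 with only the 9 wild-type arrays, 1311 and 273 with no filter, 1569 and 533 with the actin covariate, 618 and 75 at an adjusted p of 0.01, and 536 and 112 with at least 1.5-fold. Leaving out each array in turn gave 1110 to 2285 higher and 198 to 500 lower. Without the unnumbered array the differences in array measures were -0.92 (hybridisation spike-ins), -0.48 (labelling spike-ins), 0.12 (GAPDH) and 0.0917 (median intensity). None passed 0.05 after adjustment. Hybridisation spike-ins and GAPDH still did not overlap between the treatments. Their exact permutation p of 0.0286 was the smallest that the remaining arrays allow (adjusted p = 0.0714). Missing 0.05 therefore does not show that these differences went away. The interaction had no call in any setting run, with 1061 to 2109 probe sets at an unadjusted p under 0.05. For replicate numbers shared by the wild-type groups, deviations correlated at 0.22, -0.04 and 0.18 for II, III and IV. No value for arrays of unlike number is set beside these, so whether the numbers mark pairs is not settled. With the replicate number as a block, without the unnumbered array, 1069 probe sets were higher and 315 lower.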

Other observations

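Itm2a, Aldh1a2, Adcy5 and Usp11 kept their calls whichever array was left out. Adcy5, the main adenylyl cyclase of the striatum, read 10.98, 10.67, 10.75, 10.80 and 10.35 under CCI-779 and 10.25, 9.93, 10.40 and 10.02 under placebo, with 1 placebo array above the lowest CCI-779 array (0.56 ± 0.12 SE, adjusted p = 0.00632). Usp11, a deubiquitinase, read 10.44, 10.51, 10.37, 10.52 and 10.52 against 10.29, 9.69, 10.02 and 9.91, without overlap (0.50 ± 0.10, adjusted p = 0.00494). In the list of deubiquitinases 7 of 40 were higher and none lower, and 2 without the unnumbered array. Translation factors showed 6 rises and 1 fall among 32, and 4 and none without that array.

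Probe sets of Csnk1d, a clock kinase, went both ways: the brightest fell by 0.47 (adjusted p = 0.0432; -0.56 without the unnumbered array) while another rose by 0.45 (adjusted p = 0.0189). The brightest probe set of Camk2a, the kinase of excitatory synapses, fell by 0.51 (adjusted p = 0.038) and a dimmer one by 1.44 (adjusted p = 0.0183), and the other 3 did not pass. The call at the brightest was lost for both genes when 1 of several arrays was left out, 11 arrays for Csnk1d and 6 for Camk2a.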
